A study of Mus musculus with 2 samples.

Results

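The genes described here are 10 that encode high mobility group (HMG) proteins, prothymosin alpha and 2 protein ligands of HuR: Hmgb1, Hmgb2, Hmgb3, Hmga1, Hmgn1, Hmgn2, Hmgn3, Ptma, Anp32a and Anp32b. They were chosen by gene symbol, and all 10 were found among the 38396 rows of the table. RNA bound to HuR, an RNA-binding protein whose gene is Elavl1, was pulled down with an anti-HuR antibody from epididymal white fat of mice aged 6 weeks and sequenced (RIP-seq). One library was labelled HuR knockout, called HuR-FKO here, and the other control, called Ctrl here, with KO and WT in their titles. The study describes its HuR-FKO mice as AdipoQ-Cre; HuRf/f and its Ctrl mice as HuRf/f littermates. By that description both carried floxed HuR alleles and only the HuR-FKO mice carried Cre. The Cre is driven by the adiponectin promoter and acts in fat cells, so the other cells of the fat pad keep HuR. Each genotype had 1 library, so the differences lack replicates, and p-values were not computed. Whether the tissue of several mice was pooled for the pull-down is not stated in the sources used here.

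HMG proteins are abundant, small chromatin proteins. HMGB proteins bend DNA through their HMG boxes, and HMGB1 also acts outside the cell as a danger signal. HMGA1 binds AT-rich DNA through AT-hooks, and HMGN proteins bind nucleosomes and loosen chromatin. Prothymosin alpha, encoded by Ptma, is a very acidic nuclear protein that binds linker histone H1, and its mRNA is a known HuR target in human cells. ANP32A and ANP32B are acidic proteins that bind HuR itself and take part in its export from the nucleus. HuR binds U-rich and AU-rich stretches, mostly in the 3′ UTRs (untranslated regions after the stop codon) of mRNAs, and many of its targets are stabilised.

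The 3′ UTRs of these genes differ in such stretches. The 30 bases with the most U are shown for 5 of the genes, to set U-rich stretches beside that of Hmgn3, which had neither motif counted below. The bases come from the GRCm38 (mm10) genome and the GENCODE M21 annotation, and capitals mark AUUUA or runs of 7 or more U.
Hmgb1, chr5:149048401-149048430, minus strand: uuugguuuuuugUUUUUUUUUUUUUUUcuu
Hmgb2, chr8:57514438-57514467, plus strand: uguugcaUUUUUUUgUUUUUUUUUaaauuu
Ptma, chr1:86530272-86530301, plus strand: uuuguauuuuuuAUUUAcauuuuauauuuu
Hmgn2, chr4:133965416-133965445, minus strand: uuuuacUUUUUUUUUUUaagcuauauuguu
Hmgn3, chr9:83110438-83110467, minus strand: uuccuuccuucuuuccuuccuuucuuucuu
The longest unbroken run of U in these windows was 15 bases in Hmgb1, 11 in Hmgn2, 9 in Hmgb2 and 6 in Ptma. In Hmgn3 it was 3, in a stretch of alternating U and C. The runs of 7 or more U in Ptma lay outside its window.

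Before the members are described, the check of the targeted gene limits how the labels can be read. Elavl1 was listed at 26.1 FPKM in the HuR-FKO-labelled library and at 16.6 FPKM in the Ctrl-labelled library (FPKM, a count of fragments divided by transcript length and by the library's mapped fragments). On this scale it goes against the label. With median centring, upper-quartile scaling and TPM over protein-coding rows (FPKM rescaled to the same sum in each library), its log2 ratio turned to −1.02, −1.32 and −1.15, and with TPM over all rows it was 2.01. The part of Elavl1 that Cre removes was not counted separately. Of the 5571 protein-coding genes that reached 5 FPKM in either library, 92.6% were higher in the HuR-FKO-labelled library, and their median log2 ratio of that library over Ctrl was 2.22. Relative to that median, the log2 ratio of Elavl1 was −1.57. Insig1, which the study examined as a HuR target, was listed at 31.1 FPKM in the HuR-FKO-labelled library and at 45.6 FPKM in the Ctrl-labelled library, and Fabp4, the fat cell fatty acid carrier, at 16670 FPKM in the HuR-FKO-labelled library and 6444 FPKM in the Ctrl-labelled library. The libraries are therefore named by their labels, and the ratios of the members that passed are given both as deposited and relative to the median of all genes. No input or IgG library was analysed, so binding by the antibody and abundance of the RNA in the tissue cannot be told apart. In such bulk tissue, fewer cells of a type and less RNA per cell cannot be told apart either. The 8 adipocyte markers were all detected, with a summed level of 28114 FPKM in the HuR-FKO-labelled library and 8385 FPKM in the Ctrl-labelled library. All 4 markers of epididymis were listed at 0 in both libraries.

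All 10 genes were above 0 in both libraries, and all 10 were higher in the HuR-FKO-labelled library. Of these, 8 reached 5 FPKM in either library, and 7 of the 8 did so in both, while Hmgb2 passed through the HuR-FKO-labelled library alone. All 8 that passed were higher in the HuR-FKO-labelled library, where 92.6% of all genes tested were. Only 3 of the 8 (Hmgb1, Hmgn1 and Hmgn3) were at least 2-fold higher there, a size that 82.4% of all genes tested reached. The median log2 ratio of the 8 was 0.94, or 1.92-fold, against 2.22, or 4.66-fold, over all genes tested. Relative to all genes tested, the median log2 of the 8 was −1.28. For the members that passed other filters it was −1.25 at 1 FPKM, −1.01 at 20 FPKM and −0.57 with 5 FPKM required in both libraries. With no filter it was 0.31, the other way. There the median of all genes was 0.78 and that of the 10 members 1.09. Genes under 0.1 FPKM in both libraries enter there with equal values. In all, 6 of the 8 were below the median ratio and 2, Hmgb1 and Hmgn3, above it. The number at least 2-fold below the median ratio was 5 of 8, against 21.8% of all genes tested. Among the 2231 genes that reached 5 FPKM in each library, the median log2 ratio was 1.52, that of the 7 members there was 0.95, and 5 of the 7 were below that median. None of the 7 was 2-fold below it, where 19.0% of these genes were, so the count of 5 is lost there. The either-library median of 2.22 includes 3160 genes that reached 5 FPKM in the HuR-FKO-labelled library alone.

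The scale between the libraries decides the direction for most members. Centring on the median of genes detected in both libraries, scaling to the upper quartile and TPM over protein-coding rows lowered every log2 ratio by 1.67, 1.98 and 1.80. With each of these, Hmgb1 and Hmgn3 stayed higher in the HuR-FKO-labelled library and the other 6 were lower there. Of all genes tested, 66.6%, 57.6% and 62.9% were higher there, in the same order. TPM over all rows raised every log2 ratio by 1.36 and kept all 8 higher, where 97.6% of all genes tested were. The order of the members and their position relative to the median of all genes are the same under each of these scalings.

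**Figure D1:**
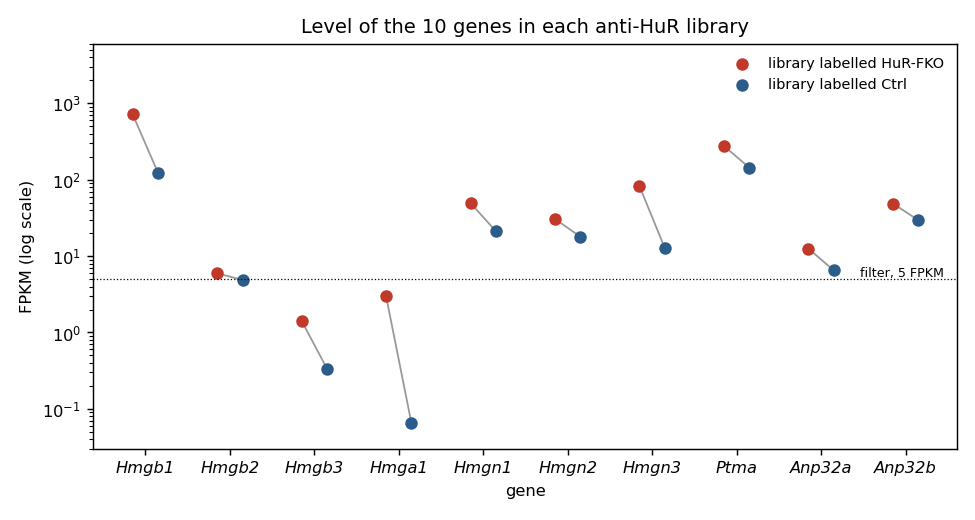
Level of each of the 10 genes in FPKM (log scale), with the HuR-FKO-labelled library as the left point of each pair and the Ctrl-labelled library as the right point. Every pair slopes down to the right, least for Hmgb2 (5.96 and 4.88 FPKM), and Hmgb3 and Hmga1 stay under the dotted 5 FPKM line in both libraries.

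Hmgb1 (ENSMUSG00000066551, chr5:149046702-149053513, minus strand) was the most abundant member in the HuR-FKO-labelled library and the next after Ptma in the Ctrl-labelled library. It was listed at 718 FPKM in the HuR-FKO-labelled library and at 123 FPKM in the Ctrl-labelled library, a 5.83-fold difference (95% counting interval 5.48 to 6.20). Among the genes tested, 98 were above it in the HuR-FKO-labelled library and 161 in the Ctrl-labelled library. Its log2 ratio of 2.54 was 0.32 above the median of all genes, and 59.6% of genes tested had a lower ratio. Among genes at 5 FPKM in both libraries, its log2 ratio was 1.03 above the median.

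The value of Hmgb1 is uncertain, because copies of its mRNA sequence elsewhere in the genome hold more signal than the gene. These are processed pseudogenes, copies of a spliced mRNA without introns, and 54 of them matched Hmgb1 at 90% identity or more over at least 200 bases and had a row. Gm15387 (chr15:74093183-74094402) matched over 648 bases at 99.8% identity and was listed at 1359 FPKM in the HuR-FKO-labelled library and at 184 FPKM in the Ctrl-labelled library. Gm21596 (chr2:113919247-113920562) matched over 1317 bases at 99.5% identity and was listed at 1264 FPKM in the HuR-FKO-labelled library and at 168 FPKM in the Ctrl-labelled library. Both pseudogenes were above Hmgb1 itself in each library. Reads of Hmgb1 mRNA and of these copies cannot be told apart from the table, and how reads with several matches were shared out is not stated in the sources used here. With all 54 rows added, the level was 3543 FPKM in the HuR-FKO-labelled library and 538 FPKM in the Ctrl-labelled library, a 6.58-fold difference. The direction and the position above the median of all genes were the same with the copies added. Copies were added to the members only, so that median was taken without the copies of other genes. The FPKM of rows of unlike length were simply summed.

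Hmgb2 (ENSMUSG00000054717, chr8:57511843-57515999, plus strand), a close relative of Hmgb1 that is best known from dividing cells, was much lower. It was listed at 5.96 FPKM in the HuR-FKO-labelled library and at 4.88 FPKM in the Ctrl-labelled library, a 1.22-fold difference. The 95% counting interval of that fold, 0.879 to 1.72, includes no difference. Of the genes tested, 9.28% had a lower ratio, and relative to the median of all genes its log2 ratio was −1.93. Copies matter here too: 6 rows near Hmgb2, 5 of them pseudogenes, summed to 15.1 FPKM in the HuR-FKO-labelled library and 3.96 FPKM in the Ctrl-labelled library. With them added the fold was 2.38, below the median of all genes, which was taken without copies. With all 6 rows added, Hmgb2 was above the folds of Hmgn2, Ptma, Anp32a and Anp32b with their own copies added. The row of the 6 that was no pseudogene was Tmx3, a protein-coding gene. Tmx3 was listed at 3.32 FPKM in the HuR-FKO-labelled library and at 0.697 FPKM in the Ctrl-labelled library. The fold without Tmx3 was not computed, so the place of Hmgb2 beside Hmgn1, at 2.35 with copies, is uncertain.

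Hmgb3 and Hmga1 were too low to pass. Hmgb3 (ENSMUSG00000015217, chrX:71555918-71560676, plus strand), an HMGB protein of stem and progenitor cells, was listed at 1.42 FPKM in the HuR-FKO-labelled library and at 0.337 FPKM in the Ctrl-labelled library. The Ctrl value corresponds to about 4.22 fragments, and the 4.21-fold difference has a counting interval of 1.59 to 17.6. Hmgb3 has 7 near-identical rows, all pseudogenes, with more summed signal than Hmgb3 itself in both libraries. They summed to 2.19 FPKM in the HuR-FKO-labelled library and 0.518 FPKM in the Ctrl-labelled library. Hmga1 (ENSMUSG00000046711, chr17:27556620-27563674, plus strand) was listed at 2.99 FPKM in the HuR-FKO-labelled library and at 0.0650 FPKM in the Ctrl-labelled library. The Ctrl value corresponds to less than 1 fragment, so no fold is given. A row named Hmga1b on chr11, identical to Hmga1 at 99.8% over 1602 bases, was listed at 3.82 FPKM in the HuR-FKO-labelled library and at 0.776 FPKM in the Ctrl-labelled library. The end of AI413582 on the other strand overlaps the last 102 bases of Hmga1, with 5.86 FPKM in the HuR-FKO-labelled library and 7.13 FPKM in the Ctrl-labelled library, and whether strand was used in counting is not stated in the sources used here.

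The 3 nucleosome-binding HMGN genes gave unlike ratios. Hmgn3 (ENSMUSG00000066456, chr9:83109948-83146685, minus strand), whose protein has been tied to insulin secretion in mice, was listed at 82.6 FPKM in the HuR-FKO-labelled library and at 12.8 FPKM in the Ctrl-labelled library. This 6.47-fold difference had a counting interval of 5.11 to 8.27, which overlaps that of Hmgb1, and 63.6% of genes tested had a lower ratio. Hmgn3 had no near-identical row, so this value does not carry the doubt that Hmgb1 does. Hmgn1 (ENSMUSG00000040681, chr16:96120618-96127729, minus strand) was listed at 49.6 FPKM in the HuR-FKO-labelled library and at 21.2 FPKM in the Ctrl-labelled library, a 2.34-fold difference (counting interval 1.98 to 2.76). Hmgn2 (ENSMUSG00000003038, chr4:133964738-133968650, minus strand) was listed at 30.7 FPKM in the HuR-FKO-labelled library and at 18.0 FPKM in the Ctrl-labelled library, a 1.71-fold difference (log2 0.77, counting interval 0.48 to 1.07). Both lay below the median of all genes, with 21.9% of genes tested below Hmgn1 and 13.8% below Hmgn2.

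The order within the HMGN genes turned between the libraries, and this does not depend on the scale between them. Hmgn3 had 1.67 times the level of Hmgn1 in the HuR-FKO-labelled library and 0.601 times in the Ctrl-labelled library. It had 2.69 times the level of Hmgn2 in the HuR-FKO-labelled library and 0.711 times in the Ctrl-labelled library. Of these 3 genes, Hmgn3 was thus the highest in the HuR-FKO-labelled library and the lowest in the Ctrl-labelled library. Hmgn2 shares sequence with 15 rows that summed to 57.8 FPKM in the HuR-FKO-labelled library and 27.8 FPKM in the Ctrl-labelled library, more than Hmgn2 itself in both. The largest, Gm10282, was listed at 27.3 FPKM in the HuR-FKO-labelled library and at 15.5 FPKM in the Ctrl-labelled library. With the 15 rows added, Hmgn2 stood at 88.4 FPKM in the HuR-FKO-labelled library and 45.8 FPKM in the Ctrl-labelled library, so its place in the order rests on where shared reads were put. Hmgn1 had 4 such rows that summed to 0.288 FPKM in the HuR-FKO-labelled library and 0 in the Ctrl-labelled library, so the comparison of Hmgn3 with Hmgn1 is little touched by copies.

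**Figure D2:**
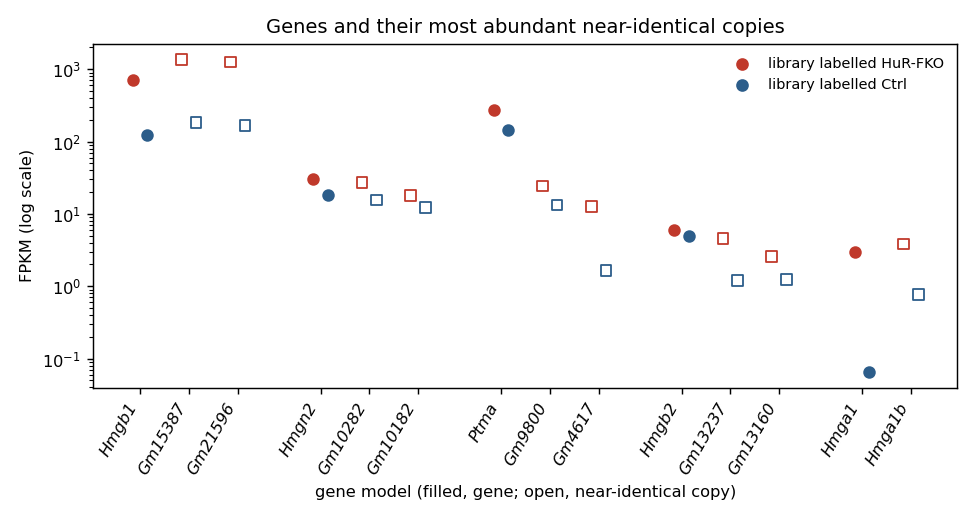
Levels in FPKM (log scale) of 5 genes (filled circles) and of up to 2 of their most abundant copies at 95% identity or more (open squares), with the HuR-FKO-labelled library at the left of each pair and Ctrl at the right. The 2 Hmgb1 copies, at 1359 and 1264 FPKM in the HuR-FKO-labelled library, lie above Hmgb1 at 718 FPKM.

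Ptma (ENSMUSG00000026238, chr1:86526736-86530698, plus strand) was the most abundant member in the Ctrl-labelled library. It was listed at 277 FPKM in the HuR-FKO-labelled library and at 145 FPKM in the Ctrl-labelled library, a 1.92-fold difference (counting interval 1.77 to 2.07). Among the genes tested, 221 were above Ptma in the HuR-FKO-labelled library and 144 in the Ctrl-labelled library, so by rank it stood lower in the HuR-FKO-labelled library. Relative to the median of all genes its log2 ratio was −1.28, and 16.4% of genes tested had a lower ratio. Ptma has 11 near-identical rows, all pseudogenes, which summed to 63.7 FPKM in the HuR-FKO-labelled library and 19.5 FPKM in the Ctrl-labelled library. With them added the fold was 2.08.

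The 2 genes of HuR's own ligands gave ratios close to that of Ptma. Anp32a (ENSMUSG00000032249, chr9:62341293-62378812, plus strand), whose product is also known as pp32, was listed at 12.6 FPKM in the HuR-FKO-labelled library and at 6.51 FPKM in the Ctrl-labelled library, a 1.93-fold difference (1.37 to 2.75). Anp32b (ENSMUSG00000028333, chr4:46450902-46472657, plus strand), whose product is also known as APRIL, was listed at 48.9 FPKM in the HuR-FKO-labelled library and at 29.7 FPKM in the Ctrl-labelled library, a 1.65-fold difference (1.49 to 1.83). Relative to the median of all genes Anp32a was 2.41-fold and Anp32b 2.83-fold lower in the HuR-FKO-labelled library, and relative to the genes at 5 FPKM in both libraries 1.48-fold and 1.74-fold lower. Anp32b had 3.89 times the level of Anp32a in the HuR-FKO-labelled library and 4.55 times in the Ctrl-labelled library, the closest match between the libraries of the pairs compared here. Among the copies of Anp32b, Anp32b-ps1 was higher in the Ctrl-labelled library, with 2.68 FPKM in the HuR-FKO-labelled library and 6.07 FPKM in the Ctrl-labelled library. With both of its copies added, the fold of Anp32b was 1.34.

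**Figure D3:**
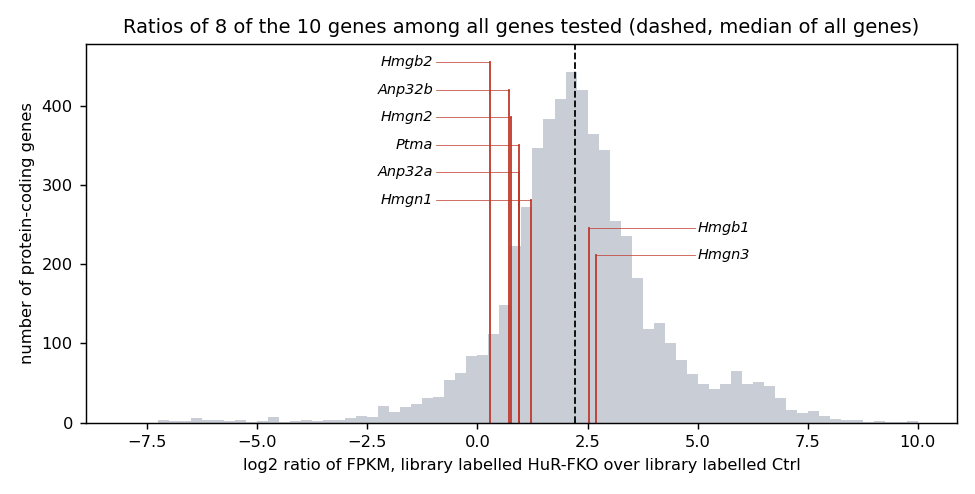
Histogram of the log2 ratio of FPKM, HuR-FKO-labelled over Ctrl-labelled library, for the 5571 genes tested (values above 10 drawn at 10), with the 8 members that passed as red lines. The dashed line is the median of all genes, 2.22; Hmgb1 and Hmgn3 lie to its right and the other 6 to its left.

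Because the members differed in their ratios, their make-up differed between the libraries. Hmgb1 took 58.4% of the summed FPKM of the 10 genes in the HuR-FKO-labelled library and 34.1% in the Ctrl-labelled library. Ptma took 22.5% in the HuR-FKO-labelled library and 40.0% in the Ctrl-labelled library. Hmgb1 had 2.59 times the level of Ptma in the HuR-FKO-labelled library and 0.852 times in the Ctrl-labelled library. Without its copies, therefore, Hmgb1 led in the one library and Ptma in the other. Hmgn3 took 6.72% in the HuR-FKO-labelled library and 3.54% in the Ctrl-labelled library, and Anp32b took 3.98% in the HuR-FKO-labelled library and 8.22% in the Ctrl-labelled library. The sum over the 10 genes was 1229 FPKM in the HuR-FKO-labelled library and 361 FPKM in the Ctrl-labelled library, a 3.40-fold difference. Without Hmgb1 it was 511 FPKM in the HuR-FKO-labelled library and 238 FPKM in the Ctrl-labelled library, and the fold was 2.15.

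**Figure D4:**
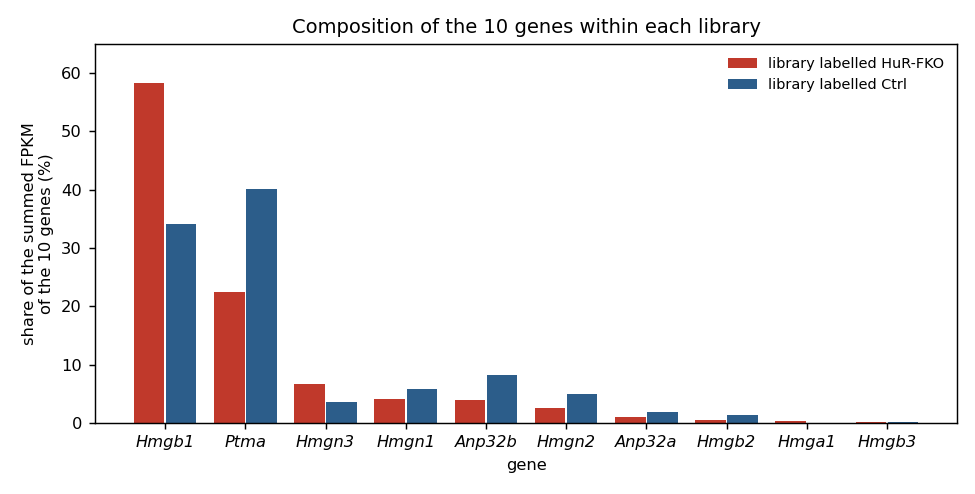
Share of each gene in the summed FPKM of the 10 genes (percent), with a left bar for the HuR-FKO-labelled library and a right bar for the Ctrl-labelled library. Hmgb1 is the tallest bar of the HuR-FKO-labelled library (58.4%) and Ptma that of Ctrl (40.0%).

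In the longest complete 3′ UTR of each gene, AUUUA was found in 6 of the 10 members and in 65.2% of 5524 genes tested. Its count was 11 in Hmgb2, 5 in Hmgb1, 2 in Ptma and 1 each in Hmgb3, Hmga1 and Hmgn1. The longer UAUUUAU, which contains AUUUA, was found in Hmgb2 alone among the members, with 4 matches, and in 24.7% of genes. UUUUUUU was found in 7 of the 10 members and in 41.5% of genes, with overlapping matches counted. Its count was 20 in Hmgb1, 8 in Ptma, 7 in Hmgb2, 6 in Anp32b, 5 in Hmgn2 and 1 each in Hmgn1 and Anp32a. All matches were sought on the strand of the mRNA. The U share was above the median of all genes, 28.6%, in 9 of the 10 members, the exception being Hmga1 with 23.2%. Hmgn3 and Hmgb1, the 2 members above the median ratio of all genes, differed in these motifs: Hmgn3 had none, and Hmgb1 had the most UUUUUUU of the members. Over all genes, the median log2 ratio was 2.23 with no AUUUA, 2.22 with 1 or 2 and 2.19 with 3 or more, while the median 3′ UTR length was 419, 997 and 2389.5 bases.

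The acidic character that ANP32 proteins, prothymosin and HMGB tails share can be read from the coding sequences, where codons beginning with GA encode aspartate or glutamate. These codons made up 47.7% of Ptma, 39.7% of Anp32b and 35.6% of Anp32a. They made up 26.0% of Hmgb1, where the longest unbroken run was 30 codons, against 23 in Hmgb2, 20 in Hmgb3, 17 in Anp32b, 12 in Anp32a and 8 in Ptma. The HMGN genes had between 11.9% and 16.7%, with no run above 3, and Hmga1 had 7.63%. The acidic genes lay on both sides of the median of all genes, with Hmgb1 above and Ptma, Anp32a, Anp32b and Hmgb2 below.

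Genes with related roles were described from lists, each by its counts on either side of the median of all genes. Of 15 other acidic histone chaperones, 10 passed, 5 below and 5 above the median, and the median log2 ratio of the 10 was 1.72. Ptms, which encodes parathymosin, the relative of prothymosin, was listed at 271 FPKM in the HuR-FKO-labelled library and at 57.1 FPKM in the Ctrl-labelled library. It had 0.980 times the level of Ptma in the HuR-FKO-labelled library and 0.395 times in the Ctrl-labelled library, so these related genes were close in level in the one library only. Set, whose product is another HuR ligand and an inhibitor of the phosphatase PP2A, was listed at 217 FPKM in the HuR-FKO-labelled library and at 36.6 FPKM in the Ctrl-labelled library. Its 5.94-fold difference set it apart from the ANP32 ligands: it had 4.45 times the level of Anp32b in the HuR-FKO-labelled library and 1.23 times in the Ctrl-labelled library. Near-identical rows were sought for the members only, so copies of Set, Ptms and the other listed genes were not checked. Nap1l1, a chaperone of histones H2A and H2B, was listed at 60.3 FPKM in the HuR-FKO-labelled library and at 41.1 FPKM in the Ctrl-labelled library. Npm1, the nucleolar chaperone nucleophosmin, was higher in the Ctrl-labelled library, with 36.0 FPKM in the HuR-FKO-labelled library and 51.1 FPKM in the Ctrl-labelled library. Anp32e, the third ANP32 gene, was named after its values were seen and was listed at 23.9 FPKM in the HuR-FKO-labelled library and at 11.4 FPKM in the Ctrl-labelled library.

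Of 7 HuR ligands and transport receptors, Set, Anp32a and Anp32b included, 5 passed, 3 below and 2 above the median. Tnpo2, an import receptor for HuR, was higher in the Ctrl-labelled library, with 16.2 FPKM in the HuR-FKO-labelled library and 19.5 FPKM in the Ctrl-labelled library. Of 8 PP2A subunits 5 passed, 3 below and 2 above the median of all genes, led by Ppp2r5a with 93.6 FPKM in the HuR-FKO-labelled library and 43.9 FPKM in the Ctrl-labelled library.

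Of 7 other HMG proteins 2 passed, both below the median of all genes. Hmgn5 was listed at 17.5 FPKM in the HuR-FKO-labelled library and at 4.17 FPKM in the Ctrl-labelled library, and Hmg20b at 7.17 FPKM in the HuR-FKO-labelled library and 7.58 FPKM in the Ctrl-labelled library. Of 13 chromatin and nucleolar factors, all but Supt16 with an HMG box, 7 passed, 4 below and 3 above the median. The median log2 ratio of the 7 was 2.19, against 2.22 over all genes tested. These values include Supt16, the partner of Ssrp1, which was above the median with a log2 ratio of 2.71. They were not computed without Supt16. Smarce1, an HMG-box subunit of the SWI/SNF remodeller, was listed at 34.0 FPKM in the HuR-FKO-labelled library and at 3.42 FPKM in the Ctrl-labelled library. Ssrp1, a subunit of the FACT histone chaperone, was listed at 15.9 FPKM in the HuR-FKO-labelled library and at 12.2 FPKM in the Ctrl-labelled library. The linker histones, which HMG proteins compete with on chromatin and prothymosin binds, had 3 of 7 passing, and all 3 lay below the median. H1fx was listed at 39.0 FPKM in the HuR-FKO-labelled library and at 9.37 FPKM in the Ctrl-labelled library. Its log2 ratio of 2.06 was above 1.52, the median of genes at 5 FPKM in both libraries. Hist1h1c was listed at 29.2 FPKM in the HuR-FKO-labelled library and at 25.4 FPKM in the Ctrl-labelled library, and H1f0 at 33.9 FPKM in the HuR-FKO-labelled library and 17.1 FPKM in the Ctrl-labelled library.

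Of 9 receptors and co-receptors of extracellular HMGB1 4 passed, 3 below and 1 above the median of all genes. Cxcr4 was listed at 13.1 FPKM in the HuR-FKO-labelled library and at 5.02 FPKM in the Ctrl-labelled library. Ager, which encodes the receptor RAGE, was listed at 0 in the HuR-FKO-labelled library and at 7.77 FPKM in the Ctrl-labelled library, and Cd14 at 7.27 FPKM in the HuR-FKO-labelled library and 0.0660 FPKM in the Ctrl-labelled library. Tlr4 did not pass, with 0.675 FPKM in the HuR-FKO-labelled library and 0.554 FPKM in the Ctrl-labelled library.

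**Figure D5:**
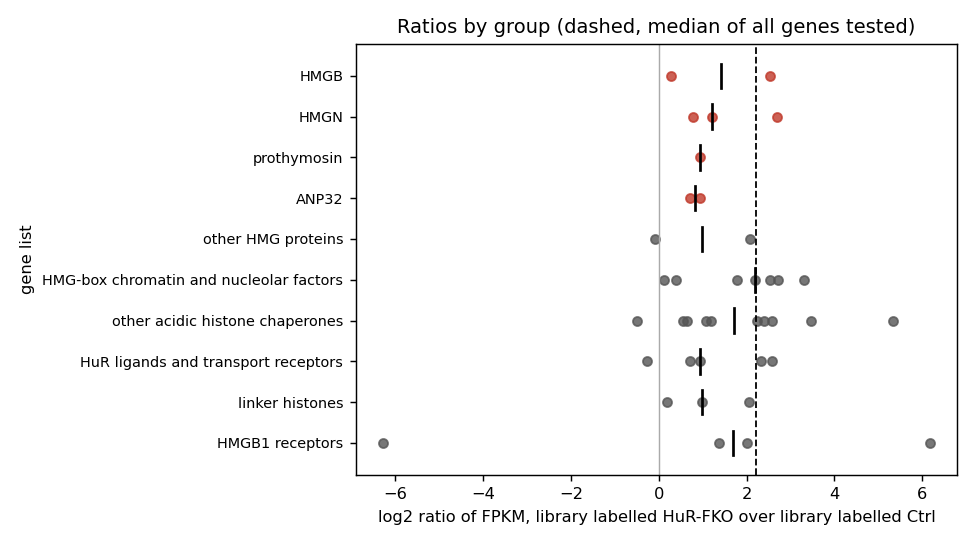
Log2 ratio of FPKM, HuR-FKO-labelled over Ctrl-labelled library, for each gene that passed (points), by gene list, with the median of each list as a black bar and the members in red. The dashed line is the median of all genes tested, 2.22; the leftmost point is Ager, listed at 0 in the HuR-FKO-labelled library and drawn with that value set to 0.1 FPKM.

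Markers of other cells of the fat pad were present in both libraries, apart from lymphocyte markers, which were near 0 in the Ctrl-labelled library. Of the 6 macrophage markers 5 were found by symbol, all but Adgre1, and 3 passed. The 5 had a summed level of 44.7 FPKM in the HuR-FKO-labelled library and 12.4 FPKM in the Ctrl-labelled library, and Cd68 was listed at 0 in both. Of the fibroblast markers 4 of 5 passed, and all 5 summed to 591 FPKM in the HuR-FKO-labelled library and 162 FPKM in the Ctrl-labelled library. Pdgfra, which did not pass, ran against these 4, with 0.170 FPKM in the HuR-FKO-labelled library and 0.512 FPKM in the Ctrl-labelled library. Of the endothelial markers 2 of 5 passed, and all 5 summed to 31.3 FPKM in the HuR-FKO-labelled library and 16.1 FPKM in the Ctrl-labelled library. Of the markers of dividing cells, which express much Hmgb2, 2 of 6 passed, and Mki67 and Cdk1 were listed at 0 in the Ctrl-labelled library. All 6 summed to 21.9 FPKM in the HuR-FKO-labelled library and 15.7 FPKM in the Ctrl-labelled library. The 2 that passed ran opposite ways, Pcna with 9.07 FPKM in the HuR-FKO-labelled library and 15.3 FPKM in the Ctrl-labelled library and Birc5 with 7.18 FPKM in the HuR-FKO-labelled library and 0.173 FPKM in the Ctrl-labelled library. No lymphocyte marker of 5 passed, and their sum was 6.13 FPKM in the HuR-FKO-labelled library and 0.0733 FPKM in the Ctrl-labelled library. The 4 erythroid markers passed, with 1757 FPKM in the HuR-FKO-labelled library and 790 FPKM in the Ctrl-labelled library, but Alas2 ran against the 3 globin genes, with 1.92 FPKM in the HuR-FKO-labelled library and 8.14 FPKM in the Ctrl-labelled library. The part of these cells in the members' ratios was not tested.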

How the data were processed

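Gene values were deposited as FPKM in 1 table, and the submitters' processing notes name TopHat2 2.0.11, Cufflinks 2.1.1 and mm10. The study's methods describe strand-specific libraries for its RNA-seq. The authors' annotation, their handling of duplicates and of reads with several matches, and whether counting used strand are not given in the sources used here. Since FPKM is relative to a library's total, a few abundant RNAs lower the other values. Of 38396 rows, 36489 matched GENCODE M21 (GRCm38, the same build) by identifier. Values under 0.1 FPKM were raised to 0.1, and log2 ratios of HuR-FKO over Ctrl were taken for protein-coding genes that reached 5 FPKM in at least 1 library. With 1 library a group no test was run.

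The members and gene lists were chosen with earlier results of these data known. Named genes are all members, Elavl1, Insig1, Fabp4, up to 4 genes a list with the highest mean FPKM, and a few named for their role after their values were seen (Anp32e, Tlr4, Pcna, Birc5, Alas2, Pdgfra and those behind a count). Near-identical rows were sought for the members only, with BLAST 2.17.0 at 90% identity over 200 bases. Protein sequences were not used here, and acidic codons were counted in GENCODE coding sequences. The 3′ UTR windows of 5 members are not reported here.

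Depth was estimated from the steps on which low FPKM values fall. Only 43.1% of 448 values in HuR-FKO and 44.3% of 609 in Ctrl lay within 0.1 of a whole step, so the depth is rough: 18200000 fragments for HuR-FKO and 10800000 for Ctrl, or 36500000 and 21500000 if each step is a whole fragment. The lower depths give the 95% exact binomial intervals, which cover counting error only. The estimate was added after the values were seen, and its first form was replaced because it missed the total of a simulated library. The scripts were checked on simulated data.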

Additional observations from a re-analysis of the deposited data

How the results depend on the processing

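No paired analysis was possible because each genotype has 1 library, and no replicate could be left out. Scaling changed the median log2 ratio of the 8 members most, which was −0.72 with median centring, −1.03 with upper-quartile scaling, −0.86 with TPM over protein-coding rows and 2.31 with TPM over all rows. The number of members higher in HuR-FKO was 2 with each of the first 3, where 66.6%, 57.6% and 62.9% of all genes tested were. The number at least 2-fold higher was 1, 0, 0 and 8 of the 8 in the same order. It was 5 of 8 with near-identical rows added, and 5 of 10 with a filter of 1 FPKM or with no filter. The share of all genes tested at that size was computed for the main setting only, where it was 82.4%. Relative to all genes the median was −1.25 with a filter of 1 FPKM, −1.01 with 20 FPKM, −0.57 with 5 FPKM required in both libraries and 0.31 with no filter. Without a filter 21127 genes entered, 3 members lay below their median of 0.78, and all 10 members were measured. The number of members at least 2-fold below the median ratio was an alternative chosen after seeing the data. It was 3 of 6 with a filter of 20 FPKM. With 5 FPKM in both libraries it was 0 of 7, where 19.0% of these genes were, and with no filter 0 of 10. The share of all genes was not computed for 20 FPKM or for no filter. With near-identical rows added, Hmgb1 had a higher ratio than Hmgn3, with log2 ratios of 2.72 and 2.69, and Anp32b, at 0.42, had the lowest of the 8. By construction, scaling moves the members and all genes together, so their difference does not change with it.

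Of 93 values of single members under the alternatives, 60 stayed within 1.5 times, 15 moved more and 18 changed sign. The filters and the setting with all rows cannot change the value of a single member, and their values are among the 60. The changes of sign all came from the scalings listed next, which shift every gene by a constant. With median centring the log2 ratio was −0.90 for Hmgn2, −0.73 for Ptma, −0.95 for Anp32b, −0.72 for Anp32a, −0.44 for Hmgn1 and −1.38 for Hmgb2. With upper-quartile scaling it was −1.20 for Hmgn2, −1.04 for Ptma, −1.26 for Anp32b, −1.03 for Anp32a, −0.75 for Hmgn1 and −1.69 for Hmgb2. With TPM over protein-coding rows it was −1.03 for Hmgn2, −0.86 for Ptma, −1.08 for Anp32b, −0.85 for Anp32a, −0.58 for Hmgn1 and −1.51 for Hmgb2. The pseudocounts of 0.1 and 1 FPKM changed no direction. The largest limit from depth is on Hmga1 and Hmgb3, with under 5 estimated fragments each in Ctrl. Insig1, Npm1, Tnpo2 and Hmg20b, higher in Ctrl as deposited, are higher in HuR-FKO with TPM over all rows.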
